A study of Homo sapiens with 6 samples.

Results

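The mitotic entry and exit regulators described here are 41 genes taken from a list of names, out of 61552 genes in the deposited tables, and the rule itself uses no measured value, although the list was drawn up with earlier results of these data known. All 41 were found by symbol and all 41 had enough counts to be tested. They were measured by RNA sequencing in NCI-H520, a human cell line established from a squamous carcinoma of the lung and labelled wild type, after 48 h with 2 µM cisplatin or with phosphate-buffered saline (PBS), the control. Cisplatin is a platinum compound used in chemotherapy, and it crosslinks DNA. Each group held 3 libraries, and the cells of both groups grew in medium with 15% fetal bovine serum. The data come from 1 cell line at 1 dose and 1 time. Whether the 3 libraries of a group come from separate cultures is not stated in the labels; the p-values reflect the spread among these libraries alone, which may be technical.

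A cell enters mitosis when the kinase CDK1, bound to a B-type cyclin, is switched on: CDC25 phosphatases remove the inhibitory phosphates that WEE1 and PKMYT1 place on it. It leaves mitosis when the anaphase-promoting complex (APC/C), a ubiquitin ligase working with CDC20 or FZR1, marks cyclin B and securin for destruction, a step that the spindle checkpoint holds back until every chromosome is attached. Most of the genes involved are transcribed late in the cell cycle under the MuvB core, which forms the repressor DREAM in resting or arrested cells and an activator with MYBL2 and FOXM1 in G2, and their mRNA is therefore a common marker of G2 and mitotic cells.

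Total counts per library ran from 9121180 to 16724285, and the first principal component, with 58.9% of the variance, separated the cisplatin from the PBS libraries. SOX2, the lineage factor of squamous lung tumours, was at 323 ± 26.7 CPM (counts scaled by adjusted library size) under cisplatin and 309 ± 24.2 CPM under PBS (SD, n = 3 each). The squamous label was borne out only in part, since 4 of 8 squamous markers had enough counts to be tested and TP63, KRT14, DSG3 and PKP1 were at or near 0, while the simple-epithelium keratin KRT8 was at 1170 CPM under cisplatin and 896 CPM under PBS. TRIM29, another squamous marker, was at 20.4 ± 1.83 CPM under cisplatin and 8.39 ± 1.27 CPM under PBS, and the squamous list summed to 165 to 180 TPM (transcript abundance per length) under cisplatin and 160 to 192 TPM under PBS. SOX2 made up most of that sum, at 152 ± 9.33 TPM under cisplatin and 156 ± 23.8 TPM under PBS. KRT5 and KRT6A were low, at 4.72 and 2.17 CPM under cisplatin and 5.42 and 1.82 CPM under PBS. In PBS library 1, 15 counts of KRT6A gave 36.3 TPM. Of the 4 epithelial markers KRT8, KRT18 and CDH1 were higher, CDH1 at 24.1 ± 2.64 CPM under cisplatin and 15.1 ± 1.78 CPM under PBS, and the list summed to 1822 to 1854 TPM under cisplatin and 1574 to 1837 TPM under PBS. EPCAM went the other way, at 438 ± 0.547 CPM under cisplatin and 477 ± 30.3 CPM under PBS. Its cisplatin libraries all lay below its PBS libraries, but the difference did not pass (adjusted p = 0.194 in edgeR). Of the 5 leukocyte markers LYZ was the 1 tested and was higher, at 3.64 CPM under cisplatin and 0.968 CPM under PBS; PTPRC and CD3E had 0 counts, and the list summed to 2.91 to 3.7 TPM under cisplatin against 0.61 to 1.21 under PBS. Of the 6 fibroblast markers COL1A1 was the 1 tested and was higher, COL3A1 had 0 counts, and the list summed to 6.44 to 7.47 TPM under cisplatin against 4.32 to 6.12 TPM under PBS. Mitochondrially encoded genes took 3.26%, 3.56% and 4.13% of the counts in the cisplatin libraries, against 4.76%, 6.05% and 4.15% in the PBS libraries. The part of these markers and of the mitochondrial share in the results was not tested. CDKN1A, the CDK inhibitor known to bring the DREAM repressor into play after DNA damage, was at 15.4 ± 1.55 CPM under cisplatin and 6.86 ± 1.36 CPM under PBS (quasi-likelihood test in edgeR, Benjamini-Hochberg adjusted p = 1.8e-04).

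Cisplatin-treated NCI-H520 cells held more mRNA of most of these genes. Of the 41 members, 28 were higher under cisplatin in edgeR's quasi-likelihood test (adjusted p under 0.05 over all 15063 tested genes), against a background of 18.9% of tested genes called higher. None was lower, against 19.3% of all tested genes. One member, ANLN, was lower at an unadjusted p under 0.05 (0.0379), and DESeq2 called 0 lower and 29 higher. The members' log2 fold changes ran from -0.20 to 1.21 with a median of 0.45, beside a median of -0.00 over all tested genes. In CPM, 29 members had every cisplatin library above every PBS library, a pattern that 25.2% of tested genes showed. In 2, CDC25A and ANLN, every cisplatin library was below every PBS library, against 24.5% of tested genes. The other 10 overlapped. In these bulk libraries a larger share of cells in G2 or mitosis and more of each mRNA per cell cannot be told apart.

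How many members passed depended on the setting. The fit on TPM changed both the scale and the test, and their separate parts were not tested. On the deposited TPM, which corrects for transcript length, limma on log2(TPM + 1) called 18 members higher and 1 lower, CDC25A (adjusted p = 0.0474). Over all 15063 tested genes it called 1055 higher and 1587 lower. On that scale the 41 members summed to 6488, 6390 and 6099 TPM in the cisplatin libraries, against 4525, 4479 and 4940 TPM in the PBS libraries. The groups did not overlap, and the means were 6326 ± 202 TPM under cisplatin and 4648 ± 254 TPM under PBS (SD, n = 3 each), a ratio of 1.36.

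**Figure D1:**
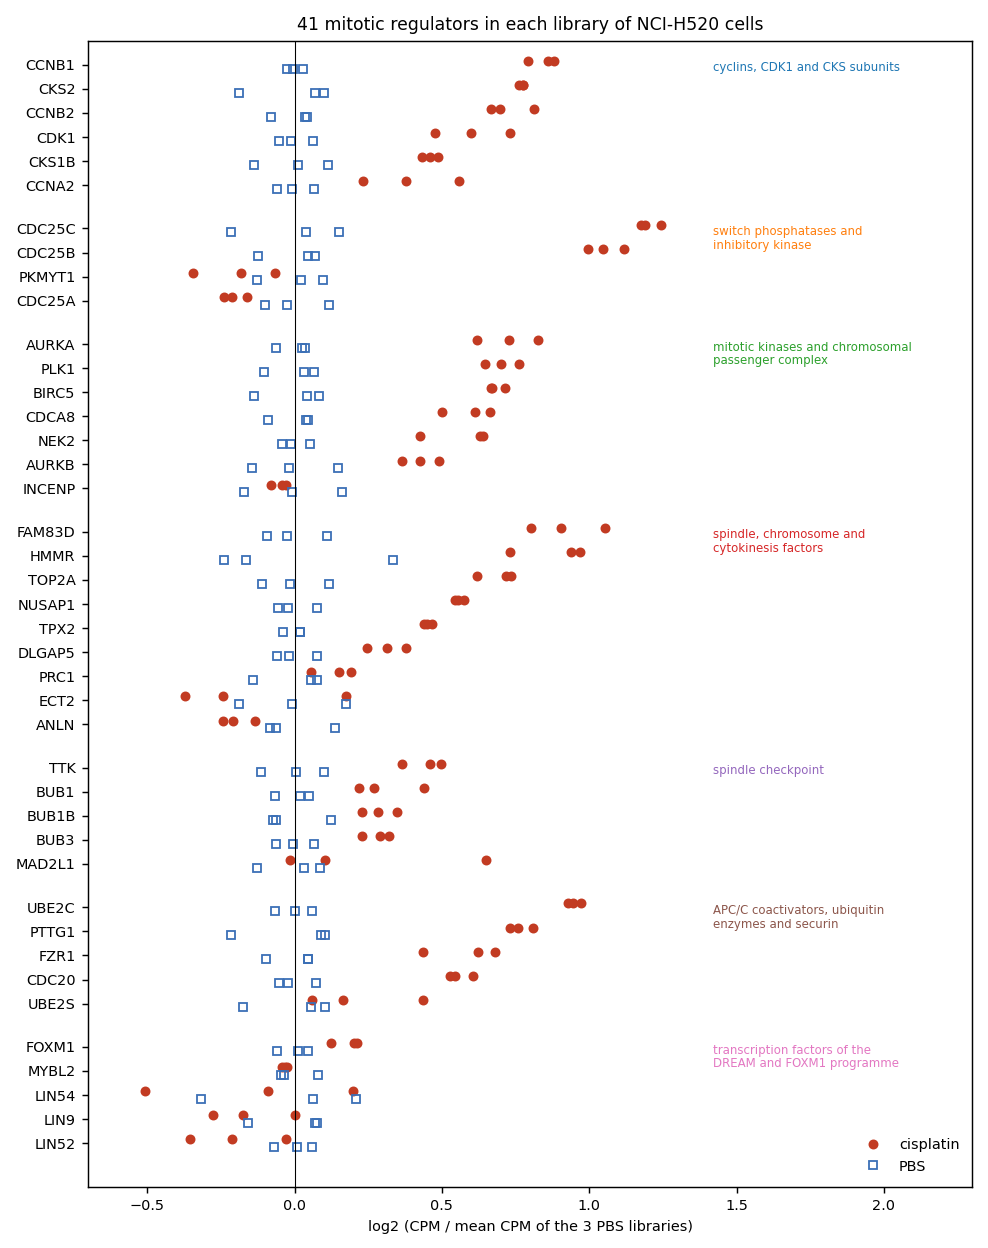
CPM of each of the 41 members in each library, as the log2 ratio to the mean of the 3 PBS libraries, ordered by role and then by change; filled circles are cisplatin libraries and open squares PBS libraries. All 6 cyclin, CDK1 and CKS genes lie to the right of their PBS libraries, while the transcription factors at the bottom sit close to 0.

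The cyclins, CDK1 and its small partner subunits were all higher, 6 of 6, with a median log2 fold change of 0.67. Beside this and the counts by step that follow stand 18.9% of all tested genes called higher. Groups that lie apart are also common: 25.2% of tested genes had every cisplatin library above every PBS library, and 24.5% had every one below. CCNB1, cyclin B1 (ENSG00000134057, chromosome 5, 69167010 to 69178245 on GRCh38), had 290, 286 and 273 CPM in the cisplatin libraries, against 161, 157 and 155 CPM in the PBS libraries. Every cisplatin library was well above every PBS library, and the libraries within a group differed little. The change was 1.8-fold (log2 0.84 ± 0.07 SE, quasi-likelihood test in edgeR, Benjamini-Hochberg adjusted p = 7.6e-06). CCNB2, cyclin B2, was at 312, 288 and 282 CPM under cisplatin and 182, 183 and 168 CPM under PBS, a 1.66-fold rise. CDK1, the mitotic kinase itself, was at 226, 248 and 208 CPM under cisplatin and 144, 156 and 148 CPM under PBS, a 1.52-fold rise. Both groups of both genes were again apart.

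CKS1B and CKS2, small proteins that bind CDK1 and direct it to phosphorylated substrates, rose by unequal amounts. CKS2 stood at 128, 127 and 128 CPM under cisplatin and at 78.6, 80.3 and 65.7 CPM under PBS, a 1.71-fold rise, and CKS1B rose 1.38-fold. With the trend of change with transcript length taken out, the log2 fold change of CKS2 was 0.49 in place of 0.77 and that of CKS1B 0.22 in place of 0.46, both still past the threshold in edgeR. The ratio of CKS2 to CKS1B in TPM was 0.926 ± 0.0174 under cisplatin and 0.759 ± 0.0225 under PBS (SD, n = 3 each), with no overlap. CCNA2, cyclin A2, which already acts in S phase, had 99.9, 113 and 90.3 CPM under cisplatin and 73.7, 80.5 and 76.3 CPM under PBS (log2 fold change 0.39 ± 0.09, adjusted p = 0.00477 in edgeR). The ratio of CCNB1 to CCNA2 in TPM was 5.45 ± 0.417 under cisplatin and 4.11 ± 0.232 under PBS. These ratios, and those given further on, were chosen after the values had been seen and carry no test. CCNA2 did not pass on the TPM scale (adjusted p = 0.152 in limma).

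The phosphatases that switch CDK1 on divided. CDC25C (ENSG00000158402, chromosome 5, 138285265 to 138338355, GRCh38), the phosphatase tied most closely to mitotic entry, changed more than any other member. It had 65.6, 63.3 and 62.6 CPM in the cisplatin libraries, against 30.8, 28.5 and 23.9 CPM in the PBS libraries. The cisplatin libraries were close to each other and the groups far apart, a 2.31-fold rise (log2 1.21 ± 0.10, adjusted p = 7.6e-06 in edgeR's quasi-likelihood test). CDC25B, which starts the activation of CDK1 at the centrosome, had 118, 124 and 114 CPM under cisplatin and 60, 52.5 and 59 CPM under PBS, a 2.08-fold rise. CDC25A, which also drives entry into S phase, had 25.8, 24.4 and 24.9 CPM under cisplatin and 28.3, 26.9 and 31.3 CPM under PBS. The cisplatin libraries of CDC25A were the lower ones without overlap, but the difference did not pass in edgeR (log2 -0.20 ± 0.09, adjusted p = 0.107).

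PKMYT1, the membrane-bound kinase that puts the inhibitory phosphates on CDK1, had 82.2, 73.4 and 89.2 CPM under cisplatin and 99.7, 85.4 and 94.8 CPM under PBS. Its groups overlapped and the difference did not pass in edgeR (log2 -0.19 ± 0.09, adjusted p = 0.119). PKMYT1 shares 24.5% of its exonic bases with PAQR4 on the other strand, whose log2 fold change was -0.50, and since the use of strand in counting is not given, reads of the overlap could belong to either gene. The ratio of CDC25C to PKMYT1 in TPM was 0.589 ± 0.0425 under cisplatin and 0.249 ± 0.0121 under PBS, and that of CDC25C to CDC25A was 5.3 ± 0.164 under cisplatin and 1.76 ± 0.333 under PBS (SD, n = 3 each). In both ratios the groups did not overlap.

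Of the mitotic kinases and the chromosomal passenger complex, 6 of 7 were higher, beside 18.9% of all tested genes, with a median log2 fold change of 0.59. PLK1, the polo kinase that activates CDC25C and matures centrosomes, had 337, 323 and 311 CPM under cisplatin and 208, 185 and 203 CPM under PBS, a 1.63-fold rise. AURKA, the centrosomal Aurora kinase that switches PLK1 on, had 149, 139 and 129 CPM under cisplatin and 86.1, 85.4 and 80.4 CPM under PBS, a 1.66-fold rise (adjusted p = 4.2e-05 in edgeR). Neither gene's groups overlapped. NEK2, which splits the centrosome pair, rose 1.48-fold, but did not pass on the TPM scale (adjusted p = 0.08 in limma).

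The passenger complex corrects wrong attachments between chromosomes and spindle, and 3 of its 4 genes rose. BIRC5, or survivin, had 265, 274 and 266 CPM under cisplatin and 172, 177 and 152 CPM under PBS, a 1.61-fold rise. CDCA8, or borealin, rose 1.51-fold to 292 ± 16.8 CPM under cisplatin, against 194 ± 10.5 CPM under PBS, and AURKB, the kinase of the complex, rose 1.35-fold to 126 ± 5.82 CPM, against 93.9 ± 9.72 CPM under PBS (SD, n = 3 each). AURKB did not pass on the TPM scale (adjusted p = 0.0771 in limma). INCENP, the scaffold that holds the other subunits, had 89.7, 92.9 and 92.2 CPM under cisplatin and 94.4, 84.2 and 106 CPM under PBS. The cisplatin libraries of INCENP lay inside the PBS range (log2 -0.05, 95% interval -0.24 to 0.14, adjusted p = 0.69 in edgeR). The ratio of AURKB to INCENP in TPM was 6.01 ± 0.194 under cisplatin and 4.29 ± 0.824 under PBS, without overlap.

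Of the spindle, chromosome and cytokinesis factors, 6 of 9 were higher, beside 18.9% of all tested genes, with a median log2 fold change of 0.45. FAM83D, which brings a kinase to the spindle, had 57.8, 52.2 and 48.6 CPM under cisplatin and 26.1, 27.4 and 30.1 CPM under PBS, a 1.89-fold rise (adjusted p = 3.5e-05 in edgeR). HMMR, a spindle protein that works with TPX2 and AURKA, had 262, 309 and 303 CPM under cisplatin and 141, 199 and 134 CPM under PBS, a 1.84-fold rise. PBS library 2 of HMMR was high, yet below every cisplatin library. TOP2A, the topoisomerase that untangles sister chromatids, was the most counted member and had 1008, 1092 and 1078 CPM under cisplatin and 608, 711 and 648 CPM under PBS, a 1.62-fold rise. TPX2, the activator of AURKA on the spindle, rose 1.37-fold to 720 ± 6.95 CPM under cisplatin, against 527 ± 12.1 CPM under PBS. The spindle proteins NUSAP1 and DLGAP5 rose 1.47-fold and 1.24-fold. TPX2, NUSAP1 and DLGAP5 did not pass on the TPM scale (adjusted p = 0.0636, 0.23 and 0.179 in limma).

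The other 3 genes of this group did not pass. PRC1, the bundler of central spindle microtubules, had 247, 240 and 225 CPM under cisplatin and 228, 196 and 225 CPM under PBS, with overlapping groups. ECT2, the exchange factor that switches on RhoA at the furrow, had 152, 203 and 139 CPM under cisplatin and 158, 203 and 179 CPM under PBS, with a wide spread in both groups. ANLN, or anillin, the scaffold of the contractile ring, had 58.9, 55.9 and 54.6 CPM under cisplatin and 60.9, 71 and 61.8 CPM under PBS. All cisplatin libraries of ANLN lay below all PBS libraries by a small margin (log2 -0.20 ± 0.09, adjusted p = 0.0848 in edgeR). PRC1 shares 57.6% of its exonic bases with AC068831.7 on the same strand, which took 25.8 ± 2.18 CPM under cisplatin and 30.4 ± 2.74 CPM under PBS, so the division of reads between them is uncertain. NUSAP1 shares 62.2% with AC087721.2, which took 2.93 ± 0.868 CPM under cisplatin and 3.13 ± 0.364 CPM under PBS.

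**Figure D2:**
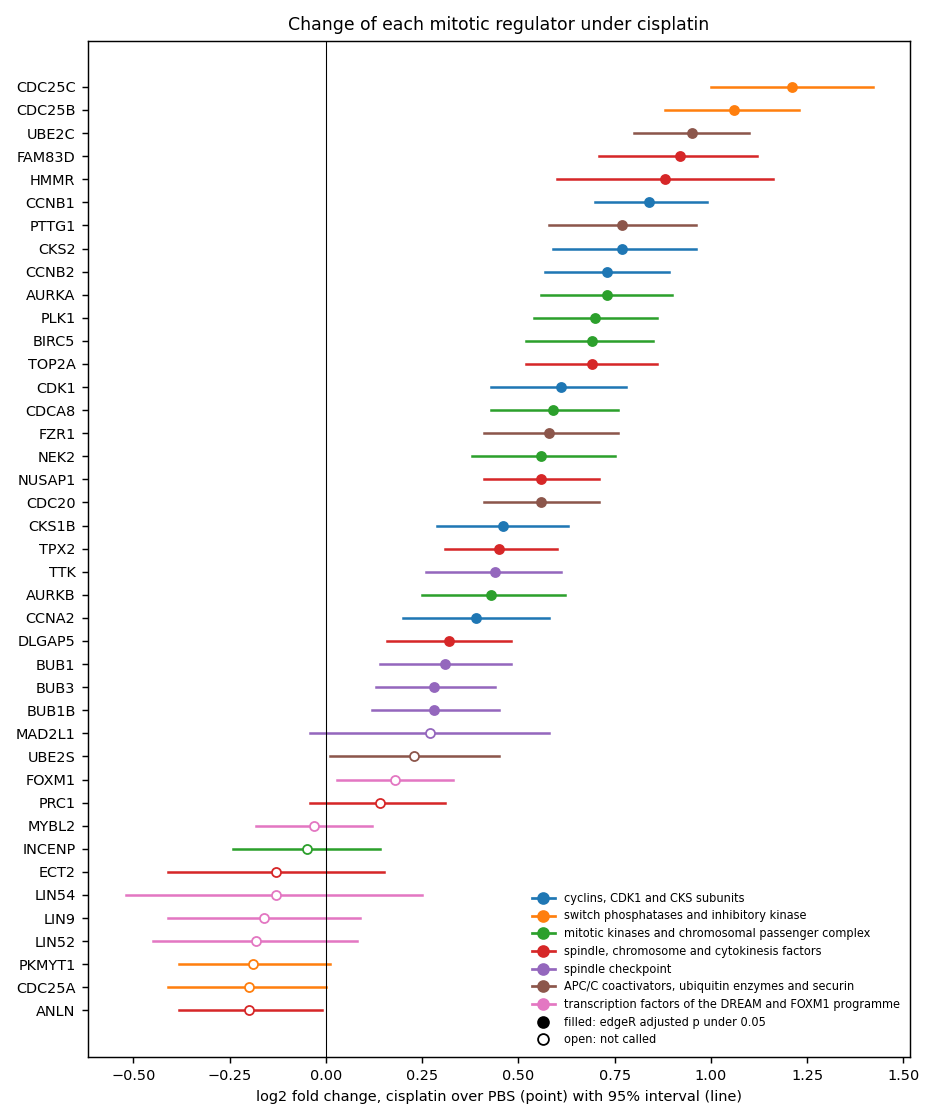
Log2 fold change of each member, cisplatin over PBS, with its 95% interval from edgeR's quasi-likelihood fit; colours give the role, filled points passed an adjusted p of 0.05 and open points did not. CDC25C and CDC25B lead at 1.21 and 1.06, and the open points are gathered at the bottom, from MAD2L1 at 0.27 to CDC25A and ANLN at -0.20.

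Changes in the spindle checkpoint were small: 4 of 5 genes were higher, beside 18.9% of all tested genes, with a median log2 fold change of 0.28. TTK, the kinase that starts checkpoint signalling at kinetochores, had 94.6, 97 and 88.5 CPM under cisplatin and 63.6, 69.1 and 73.7 CPM under PBS, a 1.35-fold rise (adjusted p = 0.00137 in edgeR). BUB1, a kinetochore kinase, had 189, 168 and 162 CPM under cisplatin and 141, 133 and 144 CPM under PBS, a 1.24-fold rise. BUB1B and BUB3, parts of the complex that blocks CDC20, each rose 1.22-fold, with 194 ± 8.06 and 192 ± 5.8 CPM under cisplatin, against 159 ± 12 and 158 ± 7.28 CPM under PBS. The groups of all 4 genes were apart, by the narrowest margin in BUB1B. Without cisplatin library 1, BUB1 and BUB1B did not pass. On the TPM scale BUB1 alone of the 5 passed in limma (adjusted p = 0.0411), with TTK at 0.221, BUB1B at 0.404, BUB3 at 0.946 and MAD2L1 at 0.338. MAD2L1, which also binds CDC20, had 89.7, 131 and 82.6 CPM under cisplatin and 76.5, 88.6 and 85.3 CPM under PBS. Cisplatin library 2 of MAD2L1 stood far above the rest, library 1 was just above the highest PBS library, and library 3 fell among the PBS libraries (log2 0.27 ± 0.14, adjusted p = 0.149 in edgeR).

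The transcript lengths of some checkpoint genes differed between the groups. The deposited length, which weights each transcript by its abundance, was 1626 ± 48 bases under cisplatin and 1483 ± 76 bases under PBS for BUB3. Its TPM, which divides by that length, was 153 ± 9.29 under cisplatin and 152 ± 22.4 under PBS, so the count of BUB3 rose and its level per length differed by less than the spread between replicates. For BUB1 the length was 2914 ± 192 bases under cisplatin and 3310 ± 74 bases under PBS, and its TPM was 68.8 ± 2.76 under cisplatin and 51.4 ± 5.21 under PBS (SD, n = 3 each).

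Among the genes of mitotic exit, 4 of 5 were higher, beside 18.9% of all tested genes, with a median log2 fold change of 0.58. UBE2C (ENSG00000175063, chromosome 20, 45812576 to 45816957, GRCh38), the enzyme that starts ubiquitin chains for the APC/C, had 157, 160 and 155 CPM in the cisplatin libraries, against 85, 81.7 and 77.9 CPM in the PBS libraries. Both groups were tight, and the change was 1.93-fold (log2 0.95 ± 0.07, adjusted p = 5.5e-06 in edgeR). Its processed copy UBE2CP5 took 83 to 150.87 counts per library under cisplatin and 53.53 to 69.96 under PBS, so some reads of UBE2C may have been assigned to the copy. UBE2S, which lengthens the chains that UBE2C starts, had 331, 308 and 400 CPM under cisplatin and 307, 318 and 262 CPM under PBS. Cisplatin libraries 1 and 3 of UBE2S lay above every PBS library and library 2 fell among them, and the difference did not pass (log2 0.23 ± 0.10, adjusted p = 0.0969 in edgeR). The ratio of UBE2C to UBE2S in TPM was 1.77 ± 0.194 under cisplatin and 1.19 ± 0.13 under PBS, without overlap.

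PTTG1, or securin, the inhibitor of separase that the APC/C destroys at anaphase, had 310, 304 and 321 CPM under cisplatin and 197, 195 and 158 CPM under PBS, a 1.7-fold rise. CDC20, the coactivator of the APC/C in early mitosis, had 686, 723 and 694 CPM under cisplatin and 500, 459 and 468 CPM under PBS, a 1.47-fold rise. FZR1, the coactivator from late mitosis through G1, had 180, 152 and 173 CPM under cisplatin and 116, 105 and 116 CPM under PBS, a 1.5-fold rise. In all 3 genes every cisplatin library was above every PBS library. The ratio of CDC20 to FZR1 in TPM was 10.5 ± 1.1 under cisplatin and 9.79 ± 0.706 under PBS, with overlapping groups. FZR1 did not pass on the TPM scale (adjusted p = 0.112 in limma).

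The 5 transcription factors of the programme had 0 of 5 called in edgeR, with a median log2 fold change of -0.13. Of all 15063 tested genes 9311 were likewise not called, so 0 of 5 does not set the factors apart. At an unadjusted p under 0.05 in edgeR FOXM1 was higher (0.0228), and DESeq2 called FOXM1 (adjusted p = 0.0431). FOXM1, which activates G2 and mitotic genes, had 322, 324 and 305 CPM under cisplatin and 289, 269 and 282 CPM under PBS. Its groups did not overlap, yet the difference of 1.13-fold fell short in edgeR (log2 0.18 ± 0.07, adjusted p = 0.0572). FOXM1 shares 15.9% of its exonic bases with ITFG2 on the other strand. The ratio of CCNB1 to FOXM1 in TPM was 1.88 ± 0.0653 under cisplatin and 1.3 ± 0.035 under PBS (SD, n = 3 each), without overlap.

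MYBL2, or B-Myb, which joins MuvB before FOXM1 does, had 272, 270 and 273 CPM under cisplatin and 294, 269 and 271 CPM under PBS. The cisplatin libraries lay inside the PBS range (log2 -0.03, 95% interval -0.18 to 0.12, adjusted p = 0.75 in edgeR). The 3 MuvB genes among the members had lower counts: LIN9 was at 16.5 ± 1.63 CPM under cisplatin and 18.3 ± 1.64 CPM under PBS, LIN54, the subunit that binds DNA, at 14.3 ± 3.41 CPM under cisplatin and 15.3 ± 2.77 CPM under PBS, and LIN52 at 12.9 ± 1.45 CPM under cisplatin and 14.7 ± 0.664 CPM under PBS (SD, n = 3 each). Their groups overlapped, and their 95% intervals ran from -0.41 to 0.09 for LIN9, from -0.52 to 0.25 for LIN54 and from -0.45 to 0.08 for LIN52 on the log2 scale. Summed over the 5 factors, TPM was 259 ± 5.4 under cisplatin and 261 ± 21.3 under PBS, a ratio of 0.995. Most of that sum was FOXM1, at 124 TPM under cisplatin and 110 TPM under PBS, and MYBL2, at 119 and 130 TPM. The ratio was 1.48 for the coactivators, ubiquitin enzymes and securin and 1.45 for the cyclins, CDK1 and CKS genes. It was 1.37 for the mitotic kinases and passenger complex and 1.27 for the spindle, chromosome and cytokinesis factors. For the CDC25 genes with PKMYT1 it was 1.25, and for the spindle checkpoint 1.11.

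LIN54 is known to bind the CHR (cell cycle genes homology region), a short element near the start of many G2 and mitotic genes that often stands beside a CCAAT box, the site of NF-Y. RefSeq promoter windows (GRCh38.p14, 250 bases before to 50 after a transcription start) were searched on both strands for TTTGAA or TTCGAA (CHR), CCAAT, and TTTCGCG or TTTGGCG (E2F). They were at hand for 32 of the 41 members, in 46 windows; those for TPX2, FAM83D, BUB3, UBE2C, TTK, FOXM1, BIRC5, AURKA and PKMYT1 were not used here. Matches of different motifs overlapped each other 1 time in the members' windows.

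The CHR letters were in a window of 23 of 32 members (71.9%), against 19.5% of the 27305 genes in the table, and CCAAT was in 26 of 32 (81.2%), against 39.7%. Both were in 18 of 32 (56.2%), against 7.85%, and E2F letters were in 5 of 32 (15.6%), against 3.85%. Counted by window, CHR letters were in 58.7% of the members' 46 windows and in 16.4% of all 35116 windows. Within the 50 bases before a start, 14 of 32 members (43.8%) and 3.43% of all genes had them. Among members called higher, 16 of 21 had CHR letters and 19 of 21 had CCAAT, and among members not called 7 of 11 had each. The letters therefore also occurred in members that did not pass, and a match is a description of the sequence, not a measured binding site. The members were listed as mitotic genes, the class in which the CHR is known, so shares above those of all genes are no test of the members.

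The last 125 bases before the start are printed for 5 members that rose and 3 that did not pass, with the matched letters in capitals, in the direction of transcription from 5′ to 3′. The 5 that rose are CCNB2 (chr15:59105021-59105145, plus strand), CDC25C (chr5:138331805-138331929, minus strand, 1 of several starts), PLK1 (chr16:23678764-23678888, plus strand), CKS2 (chr9:89311070-89311194, plus strand) and CDC20 (chr1:43358856-43358980, plus strand). The 3 others are INCENP (chr11:62123886-62124010), ANLN (chr7:36389737-36389861) and MYBL2 (chr20:43666989-43667113), on the plus strand.
CCNB2: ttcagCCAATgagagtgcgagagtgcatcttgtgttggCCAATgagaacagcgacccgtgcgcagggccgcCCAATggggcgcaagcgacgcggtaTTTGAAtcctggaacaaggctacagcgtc
CDC25C: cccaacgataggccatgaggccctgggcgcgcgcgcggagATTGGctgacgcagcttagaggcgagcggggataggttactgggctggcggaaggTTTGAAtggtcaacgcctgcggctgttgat
PLK1: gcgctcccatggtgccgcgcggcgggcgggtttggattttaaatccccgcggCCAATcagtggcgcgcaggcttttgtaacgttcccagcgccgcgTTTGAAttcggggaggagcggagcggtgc
CKS2: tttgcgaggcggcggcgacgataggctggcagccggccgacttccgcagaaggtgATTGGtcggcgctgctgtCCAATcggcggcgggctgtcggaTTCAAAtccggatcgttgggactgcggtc
CDC20: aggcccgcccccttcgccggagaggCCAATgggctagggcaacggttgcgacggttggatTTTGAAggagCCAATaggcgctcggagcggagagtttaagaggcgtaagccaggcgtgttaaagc
INCENP: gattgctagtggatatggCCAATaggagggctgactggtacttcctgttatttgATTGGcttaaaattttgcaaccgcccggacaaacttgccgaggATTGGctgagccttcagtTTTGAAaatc
ANLN: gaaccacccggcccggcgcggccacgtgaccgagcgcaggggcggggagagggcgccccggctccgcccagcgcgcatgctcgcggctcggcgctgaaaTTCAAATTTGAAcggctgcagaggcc
MYBL2: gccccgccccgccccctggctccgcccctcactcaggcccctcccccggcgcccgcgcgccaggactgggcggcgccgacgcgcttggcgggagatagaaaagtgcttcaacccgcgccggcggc
In CCNB2, PLK1 and CKS2 the CHR letters begin 29 bases before the start, and in CDC25C 30 bases before it, each with a CCAAT match on one strand or the other further upstream. CDC20 has its nearest CHR letters 65 bases before the start, upstream of a CCAAT match. INCENP, whose mRNA did not pass, holds the same pair of motifs, ANLN holds 2 adjoining CHR matches and no CCAAT, and MYBL2 holds none of the letters in this window. Both motifs were in 14 of 21 members called higher and 4 of 11 not called, but in all 5 printed here that rose. CCNB1, CCNA2, PTTG1, AURKB and NEK2, also called higher, have no TTTGAA or TTCGAA in any window searched. Other forms of the element were not searched for, so its absence from these genes is not shown. The windows of CDC25C at the 5′ end of the gene hold none of the letters.

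**Figure D3:**
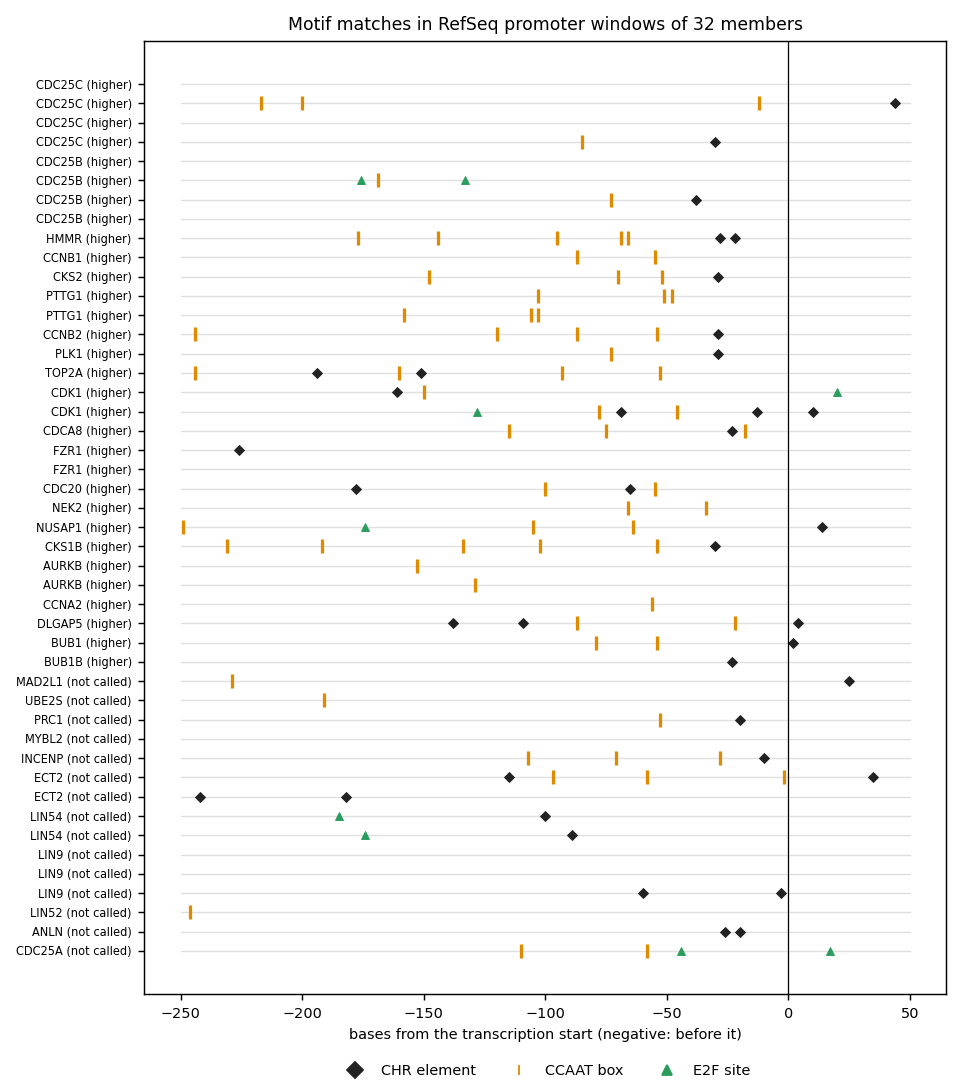
Position of the first base of each CHR, CCAAT and E2F match in 46 RefSeq promoter windows of 32 members, in bases from the transcription start; rows are windows, with members called higher above members not called, in order of their change. CHR matches gather just before the start in both kinds of member, 14 of 32 of them having one within 50 bases before it.

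Partners of these genes were read from 5 lists of related genes, against the same background of 18.9% of tested genes called higher and 19.3% lower. Of 14 other spindle and cytokinesis factors, 9 were higher and 0 lower in edgeR, with a median log2 fold change of 0.31; 0 were lower at an unadjusted p under 0.05 or in DESeq2. CDCA3, a trigger of mitotic entry, had 126 ± 2.43 CPM under cisplatin and 74.6 ± 0.485 CPM under PBS (log2 0.76), and PSRC1, a spindle protein, 72.5 ± 4.76 CPM under cisplatin and 42.8 ± 1.52 CPM under PBS (log2 0.76). CDCA2, which targets a phosphatase to chromatin, had 91.2 ± 2.74 CPM under cisplatin and 61.5 ± 2.85 CPM under PBS (log2 0.57; SD, n = 3 each). RACGAP1, the central spindle partner of ECT2, and CEP55, which acts at abscission, named after their values were seen, were higher by 0.33 and 0.57 (adjusted p = 0.00911 and 1.6e-04 in edgeR). On the TPM scale limma called 4 of the 14 higher, beside 1055 of all 15063 tested genes, and RACGAP1 did not pass (adjusted p = 0.578).

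Of the 14 APC/C core subunits, 3 were higher (21.4%) and 2 lower (14.3%), with a median of -0.03, shares near that background. ANAPC1, the largest subunit, was at 88.7 ± 6.72 CPM under cisplatin and 121 ± 12.4 CPM under PBS (log2 -0.45, adjusted p = 0.00208 in edgeR), and ANAPC4 had a log2 fold change of -0.36. CDC26, ANAPC2 and ANAPC16 were higher by 0.32, 0.27 and 0.24. None of the 3 passed when a trend of change with transcript length was removed, and 5 subunits were then lower. The difference between the subunits and the coactivators was not tested.

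Of 17 further kinases and phosphatases of the CDK1 switch, 3 were higher and 3 lower (17.6% each), with a median of -0.04, again near the background. BORA, the cofactor with which AURKA activates PLK1, was at 24.4 ± 0.504 CPM under cisplatin and 15.9 ± 1.26 CPM under PBS (log2 0.61, adjusted p = 6.8e-04 in edgeR). BORA shares 37.0% of its exonic bases with DIS3 on the other strand, which had a mean count of 535.1. BORA did not pass on the TPM scale (adjusted p = 0.0829 in limma). CDK7, the kinase that activates CDK1, and CCNF, cyclin F, were higher by 0.45 and 0.34. ARPP19, an inhibitor of the phosphatase PP2A-B55 that opposes CDK1, was at 154 ± 7.43 CPM under cisplatin and 214 ± 15.2 CPM under PBS (log2 -0.47, adjusted p = 6.1e-04). The exit phosphatase CDC14A fell by 0.67 on the log2 scale. WEE1, the nuclear kinase that inhibits CDK1, was at 26.1 ± 1.38 CPM under cisplatin and 31.5 ± 2.01 CPM under PBS (log2 -0.28, adjusted p = 0.0313), and it passed under 5 of 14 alternative settings.

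Of 13 checkpoint partners, separase and cohesion protectors, 2 were higher and 2 lower (15.4% each), with a median of 0.07, also near the background. SPDL1, which recruits dynein to kinetochores, and MAD2L1BP, which helps to take the checkpoint complex apart, were higher by 0.27 and 0.41, but MAD2L1BP did not pass with the length offset (log2 0.24, adjusted p = 0.141). KNTC1 and MAD1L1, which act at kinetochores in checkpoint signalling, fell by 0.32 and 0.31 on the log2 scale. MAD1L1 passed under 9 of 14 alternative settings. Limma on TPM called 0 of the 13 higher and 0 lower. Per length KNTC1 was at 43.7 ± 12.5 TPM under cisplatin and 44.0 ± 6.38 TPM under PBS (adjusted p = 0.924 in limma). SPDL1 was at 79.6 ± 3.07 TPM under cisplatin and 77.8 ± 6.02 TPM under PBS (adjusted p = 0.855 in limma). Of 10 DREAM and MuvB partners, 2 were higher and 6 lower, with a median of -0.32. LIN37, a MuvB subunit needed for repression, was at 11.9 ± 0.888 CPM under cisplatin and 7.8 ± 0.472 CPM under PBS (log2 0.62, adjusted p = 0.00286 in edgeR), and TFDP2, a partner of E2F factors, was higher by 0.40. LIN37 shares 26.7% of its exonic bases with AD000671.1 on the same strand and 41.8% with AD000671.3 on the other. Their mean counts were 18.2 and 2.0. RBBP4, the histone-binding MuvB subunit, was at 180 ± 7.54 CPM under cisplatin and 233 ± 11.6 CPM under PBS (log2 -0.37), DYRK1A, the kinase that assembles DREAM through LIN52, fell by 0.35 and MYBL1, or A-Myb, by 0.76 on the log2 scale. With the length offset DYRK1A did not pass (log2 -0.13, adjusted p = 0.281). On the TPM scale limma called 1 of the 10 higher and 1 lower, beside 1055 higher and 1587 lower of all 15063 tested genes.

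Across all genes, shorter transcripts had higher fold changes under cisplatin, and the members' changes are given beside that trend. Over all 15063 tested genes the Spearman correlation of the log2 fold change with log2 mean transcript length was -0.35, and over the 41 members it was -0.40, both across genes, which are not independent replicates. The 14 shortest members (616 to 1902 bases) had a median log2 fold change of 0.58 with 11 higher, where all genes in that range of lengths had a median of 0.15 with 28.2% higher. The middle 13 (1917 to 2824 bases) had a median of 0.56 with 10 higher, beside 0.02 and 19.5% for all genes. The 14 longest (2906 to 5430 bases) had a median of 0.23 with 7 higher, beside -0.13 and 10.6%. In each of these ranges the members' median was above that of all genes of like length. With the trend taken out as an offset, 28 members were higher with a median of 0.44, BUB3 did not pass (adjusted p = 0.0695), FOXM1 passed (log2 0.23, adjusted p = 0.0128), and PKMYT1 was lower (log2 -0.31, adjusted p = 0.0132). TOP2A, the longest member, was at 0.69 without and 0.92 with the offset, while CKS2 moved to 0.49, UBE2C to 0.70, PTTG1 to 0.52, AURKB to 0.26 and CKS1B to 0.22, and these 6 still passed in edgeR.

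**Figure D4:**
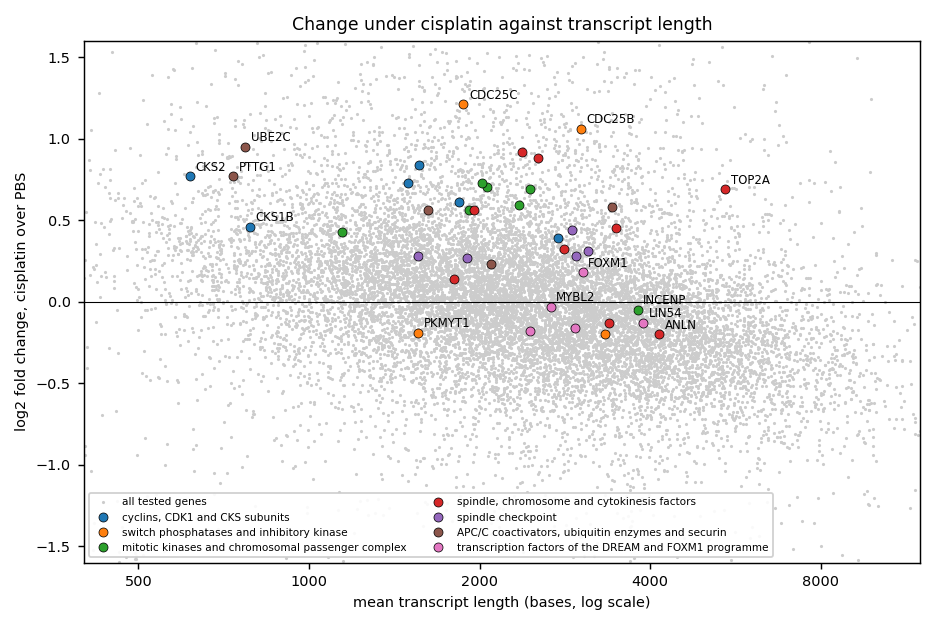
Log2 fold change, cisplatin over PBS, against mean transcript length on a log axis for all tested genes (grey) and the 41 members (coloured by role); 327 of 15063 genes lie outside the axes. The grey cloud slopes downwards (Spearman -0.35), and TOP2A, the longest member, and CKS2, the shortest, both lie above 0.

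The deposited lengths also differed between groups for some members. In 8 members (19.5%) every cisplatin library had a longer abundance-weighted length than every PBS library, against 6.86% of all tested genes, and in 4 (9.76%) a shorter one, against 8.89%. As a ratio between the group means, the largest differences were in LIN54, at 4233 ± 448 bases under cisplatin and 3546 ± 255 bases under PBS, CDC25A, at 3561 ± 45 bases under cisplatin and 3101 ± 241 bases under PBS, and NUSAP1, at 2091 ± 152 bases under cisplatin and 1822 ± 78 bases under PBS (SD, n = 3 each). With 3 libraries against 3 an exact permutation test cannot go below p = 0.1, so these are given as values. The TPM of CDC25A, at 7.97 ± 0.424 under cisplatin and 11.5 ± 1.91 under PBS, was further apart than its CPM.

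The order of levels was the same at the top and bore shifts of up to 7 places in the middle. Per length, PTTG1 was the most abundant member at 797 ± 15.3 TPM under cisplatin and 511 ± 15.9 TPM under PBS, followed in both groups by CDC20, CKS1B, CKS2 and UBE2C. Under cisplatin these 4 stood at 561 ± 26.1, 504 ± 22.6, 467 ± 22.5 and 369 ± 18.5 TPM, and under PBS at 405 ± 38.1, 394 ± 17.1, 299 ± 6.78 and 208 ± 11.9 TPM (SD, n = 3 each). Under cisplatin CDC20 ran from 541 to 591 TPM and CKS1B from 483 to 528 TPM, without overlap. Under PBS the levels of CDC20 and CKS1B differed by less than their spread. CDC25A and the MuvB genes LIN9, LIN52 and LIN54 held the last 4 places in both groups, with LIN54 last at 3.79 ± 0.912 TPM under cisplatin and 5.19 ± 0.73 TPM under PBS. In between, MYBL2 was in place 21 under cisplatin and 14 under PBS, BUB3 in place 16 under cisplatin and 10 under PBS, and PLK1 in place 11 under cisplatin and 16 under PBS. Within the cisplatin group, library 3 was the lowest for 23 of 41 members, though its median deviation from the group mean was -0.029 on the log2 CPM scale.

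**Figure D5:**
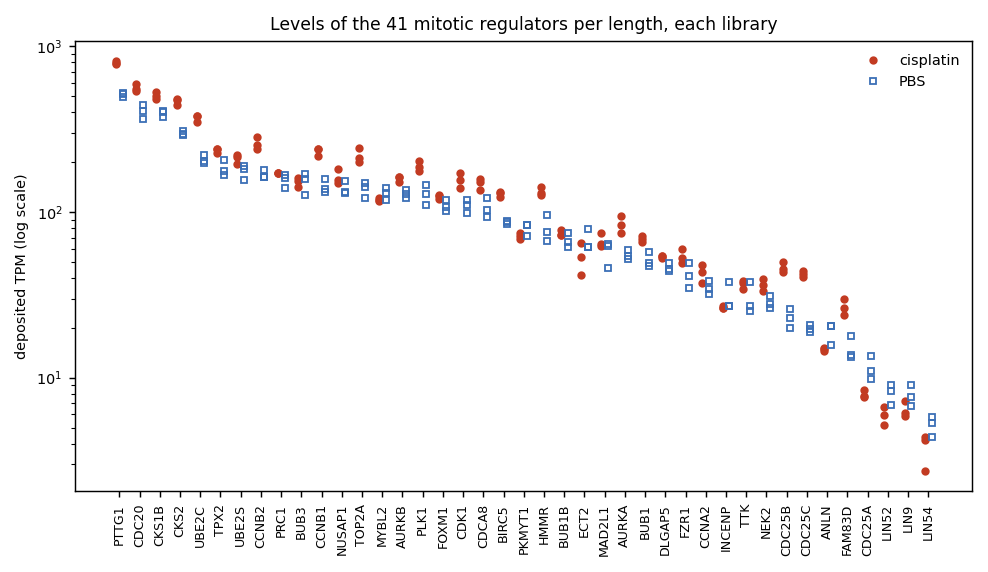
Deposited TPM of each member in each library on a log axis, in order of the PBS mean; filled circles are cisplatin libraries and open squares PBS libraries. PTTG1, CDC20, CKS1B, CKS2 and UBE2C lead in both groups, and CDC25A and the 3 MuvB genes come last.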

How the data were processed

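Total RNA of NCI-H520 cells (1.5 µg per library, TRIzol) was sequenced, per the labels' protocols. Alignment used STAR 2.7.9 and GRCh38 (hg38), per the submitters' processing notes. Each deposited table holds RSEM-style columns, per the file headers: expected counts, not normalized and not always whole, TPM values, and transcript lengths weighted by abundance. The deposited FPKM values were not used here. For the quantifier's version, its annotation and the use of strand, the sources used here give nothing. Rounded expected counts went into edgeR 4.0.16 under R 4.3.3 (low-count filter filterByExpr, minimum count 10 and total 15, which left 15063 genes; TMM; quasi-likelihood test on the group), with Benjamini-Hochberg adjustment over all of them and a threshold of 0.05. CPM use TMM-adjusted library sizes; 95% intervals rest on the quasi-likelihood standard error.

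Alternatives were RLE scaling, library totals alone, no filter, 50 counts in 3 libraries, the replicate number as a block, DESeq2 1.42.0, limma 3.58.1 on log2(TPM + 1), an offset for the length trend, and leaving out each library. The scripts were tested on simulated data. All members are named; of the related lists up to 3 called genes in each direction. The members, related lists and tests were chosen with earlier results of these data known. Symbols matched 61399 of 61552 identifiers; gene positions and exon overlaps come from GENCODE 29, which may differ from the annotation used for the files. Promoters are from RefSeq. No 2 libraries of a group agreed within sampling noise (chi-square per degree of freedom 2.99 to 20.6).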

Additional observations from a re-analysis of the deposited data

How the results depend on the processing

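Of the 574 values obtained for single members under the 14 alternatives, 548 kept their direction and their side of the threshold, 13 lost it, 9 gained it and 4 changed sign; 22 of 41 members kept both under every alternative. Those that changed sign were uncalled: INCENP with the length offset (0.070) and without PBS replicate 3, MYBL2 without PBS replicate 1 and LIN54 without cisplatin replicate 3. Over the libraries left out, INCENP ran from -0.121 to 0.038, MYBL2 from -0.052 to 0.010 and LIN54 from -0.307 to 0.053. SOX2 was at -0.027 on the TPM scale and ran from -0.004, without cisplatin replicate 3, to 0.112.

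Limma on log2(TPM + 1) called 18 members higher and 1 lower with a median of 0.344, and 1055 higher and 1587 lower of all genes; the median over all genes was -0.071 on that scale. There it called 0 higher and 0 lower of the APC/C subunits, 0 and 1 of the CDK1 switch genes, 0 and 0 of the checkpoint partners, 1 and 1 of the DREAM partners, and 4 spindle factors higher. With the length offset 1 member was lower, and 0 APC/C subunits were higher and 5 lower; DESeq2 called 1 subunit higher. With no low-count filter 4 checkpoint partners were higher. The causes were not tested. Leaving out 1 library at a time left 26 to 29 members higher and 0 lower. It gave 0 to 2 APC/C subunits higher and 1 to 3 lower, 1 to 4 checkpoint partners higher and 1 to 2 lower, and 3 to 6 DREAM partners lower. MAD2L1 passed without cisplatin replicate 3 and UBE2S without cisplatin replicate 2.

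The replicate number gave no clear sign of pairing: same-number correlations were 0.0658, 0.123 and -0.076, and those between different numbers ran from -0.188 to 0.13. With 3 libraries a group, such values cannot show whether the samples were paired. With the replicate number as a block 28 members were higher and 4 checkpoint partners, and no member's call changed. The 3 libraries a group and 9121180 to 16724285 counts per library limit the precision of every value.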
